A study of Mus musculus with 5 samples.

Results

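The ErbB receptor family and its ligands were followed in single-cell RNA sequencing of mouse PyMT mammary tumours. The genes are the 4 receptors (Egfr, Erbb2, Erbb3 and Erbb4) and 6 ligands of the EGF family (Areg, Btc, Ereg, Hbegf, Nrg1 and Tgfa), taken by name, and they are 10 of the 41028 gene names in the deposited matrices. PyMT tumours carry the polyoma middle T antigen. The labels give no strain, age, promoter, number of mice or tumours per library, or further allele, and every group shares this tumour model. The tumours were digested and enriched for viable cells, then loaded either on the 10x Genomics 3' v2 droplet system or on the BD Rhapsody microwell system with its whole transcriptome assay. Fresh cells gave 2 libraries on 10x (fresh 10x 1 and 2). A digest held overnight in the cold, for 24 h by its title, gave 1 library (stored 10x), and the protocol asked for a measured drop in viability before it went on. On BD Rhapsody, BD 1 was fresh by title and by file name, whereas BD 2 was titled fresh but carries file names of the stored state, so no storage state was assumed for it.

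ErbB proteins are receptor tyrosine kinases that pair on the cell surface when a ligand binds, and the pairs signal through the Ras-ERK and PI3K-AKT pathways. Erbb2 has no known ligand of its own and acts as a partner, and Erbb3 has little kinase activity and signals through its partners. Amphiregulin (Areg), transforming growth factor alpha (Tgfa), betacellulin (Btc), epiregulin (Ereg) and HB-EGF (Hbegf) bind Egfr, some of them also Erbb4, and neuregulin 1 (Nrg1) binds Erbb3 and Erbb4. The ligands are made as membrane proteins and released by proteases of the ADAM family. In the normal mammary gland, amphiregulin is known as the estrogen-induced signal of hormone-sensing luminal cells that drives duct growth through Egfr in the stroma.

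On the GRCm38.p6 assembly, Ereg (chr5:91074617-91093649), Areg (chr5:91139599-91148432) and Btc (chr5:91357261-91402994) are neighbours, and they are the 3 protein-coding RefSeq genes from Ereg to Btc. The receptors lie apart, with Erbb4 on chromosome 1, Erbb3 on chromosome 10, and Egfr and Erbb2 both on chromosome 11. RefSeq's promoter table matched 6 of the 10 genes. Areg and Btc are shown because these neighbours differed in how far they were spread over cells, described further on. Epithelial-like cells held most captured transcripts of both, 87.7% for Areg and 97.3% for Btc, but they were also 11849 of the 15619 clustered cells. Scaled to all captured transcripts of a class, Areg was higher in T-like cells. Each line gives the 250 bases before the transcription start on the gene's own strand, 5′ to 3′, with matches to the motifs searched in capitals. The Areg window is chr5:91139349-91139598 (plus strand) and the Btc window is chr5:91402995-91403244 (minus strand).
Areg: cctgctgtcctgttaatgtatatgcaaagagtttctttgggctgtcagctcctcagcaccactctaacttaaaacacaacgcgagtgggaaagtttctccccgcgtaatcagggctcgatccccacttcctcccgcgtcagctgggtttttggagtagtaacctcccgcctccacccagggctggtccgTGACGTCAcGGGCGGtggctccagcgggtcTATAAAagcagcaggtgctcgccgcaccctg
Btc: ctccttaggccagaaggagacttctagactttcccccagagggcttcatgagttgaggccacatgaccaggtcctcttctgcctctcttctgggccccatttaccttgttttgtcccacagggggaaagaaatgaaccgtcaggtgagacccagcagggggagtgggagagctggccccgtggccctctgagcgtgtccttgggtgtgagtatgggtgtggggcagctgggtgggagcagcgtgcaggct
Both strands were searched for 4 motifs. The letters of the cAMP response element were TGACGTCA. Those of the GC box were GGGCGG. An AP-1 site was searched as TGANTCA, where N is any base. The box bound by the TATA-binding protein was searched as TATAAA. The Areg window held TGACGTCA starting 61 bases before the start, GGGCGG at 52 and TATAAA at 31, with no overlap between them. The Btc window held none of the 4. Among 32851 promoter windows of the same length, 1.55% held TGACGTCA, 12.4% held TATAAA, 32.7% held GGGCGG and 6.75% held TGANTCA. Of the 6 matched windows, those of Egfr and Tgfa also held GGGCGG, and those of Erbb2 and Erbb4 held no match. The Erbb4 window lay inside the RefSeq span of its gene and the Tgfa window reached into the span of its own. These are matches of letters in a window and no binding was measured.

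The 5 libraries held 15958 cells in all, and each held 29166129 to 59957945 unique molecular identifiers (UMIs, each a captured transcript). Median UMIs per cell ran from 8926 to 12474, and the median mitochondrial share was 6.14% and 6.99% in the fresh 10x pair, 7.17% in stored 10x, 15.2% for BD 1 and 19.8% for BD 2. Of 15619 clustered cells, 11849 were epithelial-like, 1190 fibroblast-like, 424 endothelial-like, 174 mural-like, 562 macrophage-like, 244 T-like and 118 NK-like, and 948 stayed unnamed. All 9 epithelial markers had UMIs in each library, with a summed level of 21316 to 27284 for every 1000000 UMIs. Endothelial-like cells were 8.66% and 5.42% of the fresh 10x libraries, 2.25% of stored 10x, 1.22% of BD 1 and 0.319% of BD 2, so values for this class rest on few cells outside the fresh pair. BD 1 and BD 2 shared 24 cell barcodes, fresh 10x 2 and stored 10x shared 5, and no other pair of libraries shared more than 1. Levels are UMIs of the gene for every 1000000 UMIs of the cells named (written UPM), and they are compared between cells and libraries, not between genes. Classes and clusters were made without the 10 genes, and differences between them are given as a description with no test.

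Egfr, the receptor of most of these ligands, was highest in fibroblast-like cells. In fibroblast-like cells its level was 87.3 and 101 UPM in fresh 10x 1 and 2, 148 in stored 10x, 184 for BD 1 and 181 for BD 2. Epithelial-like cells had 18.2, 19.2, 19.6, 27.2 and 22.6 in the same order, so the ranges of the 2 classes did not overlap. Mural-like cells came next to fibroblast-like cells in the pooled order, at 17.8 to 33.7 in the 3 libraries with at least 20 such cells, and overlapped epithelial-like cells. Fibroblast-like cells held 40.9% of all Egfr UMIs although they were 1190 of the 15619 clustered cells. T-like cells held 0 Egfr UMIs in every library and macrophage-like cells 0 to 2.56 UPM, the background to set against the other classes.

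The fibroblast-like cells fell into 2 clusters that differed in Egfr and in the ligands. Cluster 22 was led by Efemp1, Clec3b and Dpt, and cluster 31 by Cilp, Spon1, Thbs4 and Postn. In cluster 22 Egfr stood at 153 and 162 UPM in the fresh 10x pair, 184 in stored 10x, 217 for BD 1 and 212 for BD 2. Cluster 31 had 75.9, 73.4, 80.5, 105 and 95.5, below every library of cluster 22. Nrg1 ran the other way, with 42.9, 38.6, 16.1, 23.7 and 22.3 in cluster 31 against 20.7, 4.97, 4.00, 1.48 and 5.88 in cluster 22. Cluster 31 was above cluster 22 in each library, although the fresh 10x 1 value of cluster 22 came from 8 UMIs in 29 cells. Hbegf was likewise higher in cluster 31 in each library, at 27.2 to 83.3 against 3.31 to 9.60. The mixture of the clusters differed between libraries. Cluster 31 made up 85.1% and 68.3% of fibroblast-like cells in the fresh 10x pair, and 31.9%, 32.6% and 28.8% in stored 10x, BD 1 and BD 2. Class-level Egfr and Nrg1 in fibroblast-like cells moved with that mixture, but levels inside the clusters differed too. In both clusters Egfr was above both fresh 10x values in stored 10x, BD 1 and BD 2. Nrg1 in cluster 31 was below both fresh 10x values in the same libraries. The parts of mixture and of level in the class values were not tested. With 1 stored library and 1 library per BD sample, neither can be told apart from storage or platform.

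**Figure D1:**
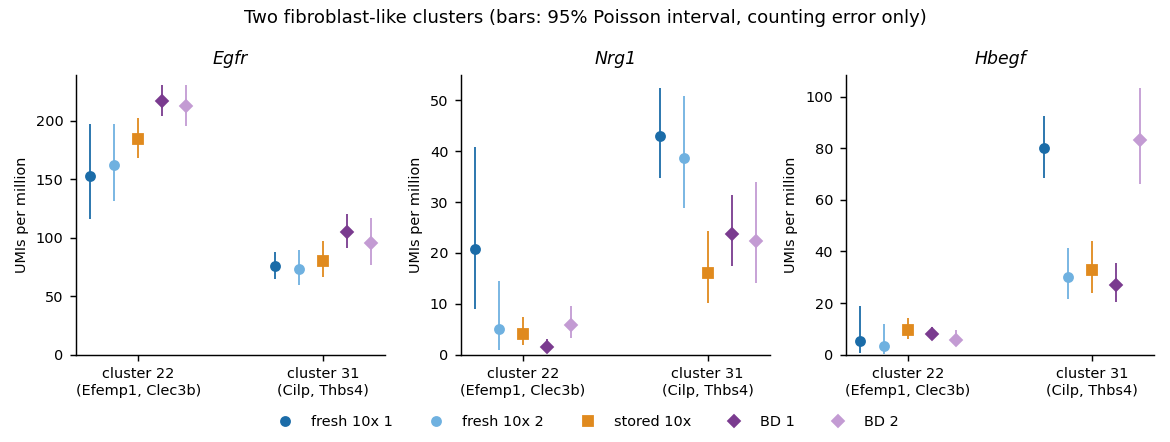
Egfr, Nrg1 and Hbegf in UPM (y axes, from 0) in the 2 fibroblast-like clusters (x axis), 1 point per library with its 95% Poisson interval for counting error. Egfr sits at 153 to 217 in cluster 22 and at 73.4 to 105 in cluster 31, while Nrg1 and Hbegf are higher in cluster 31 in every library.

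Erbb3, the partner that recruits PI3K, was the receptor with the largest share of its UMIs in epithelial-like cells. It stood at 47.4 and 46.6 UPM of epithelial-like cells in the fresh 10x pair, 37.4 in stored 10x, 34.7 for BD 1 and 33.5 for BD 2, and these cells held 97.7% of its UMIs. Fibroblast-like cells had 0.769 to 4.92, and the class with the next highest pooled level, NK-like cells, had 2.84 from a single UMI. Macrophage-like cells, taken as background, had 0 to 4.23. Erbb2 was spread more widely. Its epithelial-like levels were 14.1, 16.2, 20.7, 13.4 and 10.97 in library order, and those of fibroblast-like cells were 9.61, 10.9, 14.2, 5.94 and 6.75, lower in each library. Mural-like cells had the highest pooled level, 20.8 against 15.2 in epithelial-like cells, but from 17 UMIs in 155 cells. They had 17.2, 28.1 and 8.92 in the 3 10x libraries, overlapping the epithelial range. Erbb4 was sparse, with 743 UMIs in all, 96.6% of them in epithelial-like cells. Its epithelial-like level was 2.42, 3.41, 2.70, 4.84 and 5.19 in library order. Endothelial-like cells, next in the order, held 4 Erbb4 UMIs and overlapped that range.

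**Figure D2:**
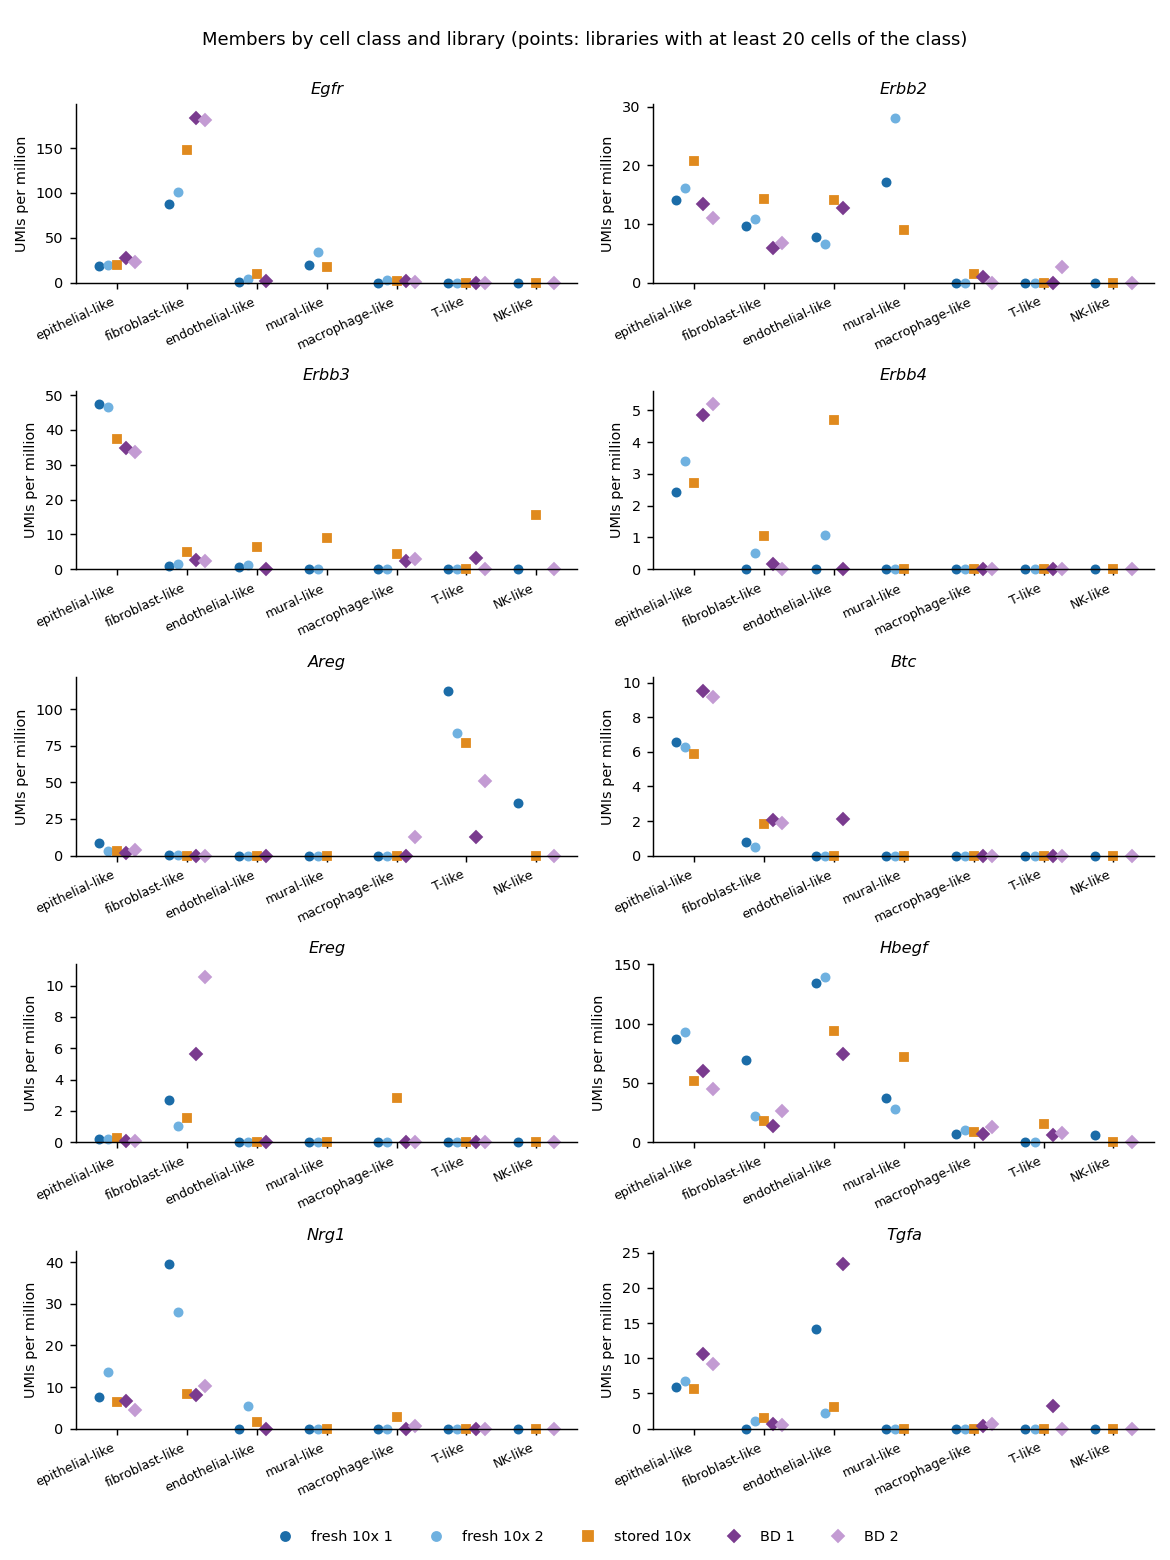
Level of each of the 10 genes in UPM (y axes, linear, from 0) by cell class (x axis), 1 point per library with at least 20 cells of the class. By pooled level, Egfr is highest in fibroblast-like cells, Erbb3, Erbb4 and Btc in epithelial-like cells, Hbegf in endothelial-like and then epithelial-like cells, and Areg in T-like cells.

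Within the epithelial-like cells, 15 clusters were made, and 7 of them carried a name from marker lists. The pooled Egfr level was highest in the basal-like cluster (led by Krt5, Krt14 and Krt17), at 40.1 and 39.1 UPM in fresh 10x, 36.5 in stored 10x, 54.9 for BD 1 and 88.2 for BD 2. The next cluster, interferon-like, spanned 25.9 to 40.7 and overlapped it. Erbb3 was lowest in the basal-like cluster (pooled 21.7, range 12.9 to 27.4). It was high in the luminal progenitor-like cluster led by Aldh1a3, with 52.4 to 75.3, and in the 48 hormone-sensing-like cells, with 57.8 to 134, which overlap. Those hormone-sensing-like cells, led by Ptn, Gpx3, Tph1 and Cited1 with all 6 markers of their list detected, also had the highest pooled Erbb2 level, 49.4, but their library range of 12.7 to 95.6 overlapped that of other clusters. The pooled Erbb4 level was highest in unnamed cluster 4 (Scgb1b27, Pip and Cartpt), with a pooled 10.2 and a range of 4.40 to 14.1, and then in unnamed cluster 2 (Atp2a3, Scgb2b27 and Hepacam2), with 3.20 to 11.8. These 2 clusters also had the highest pooled Nrg1 levels, 10.8 to 38.0 in cluster 4 and 9.03 to 23.4 in cluster 2, again overlapping. Nrg1 was near 0 in the alveolar secretory-like cluster (7 UMIs in 322 cells).

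**Figure D3:**
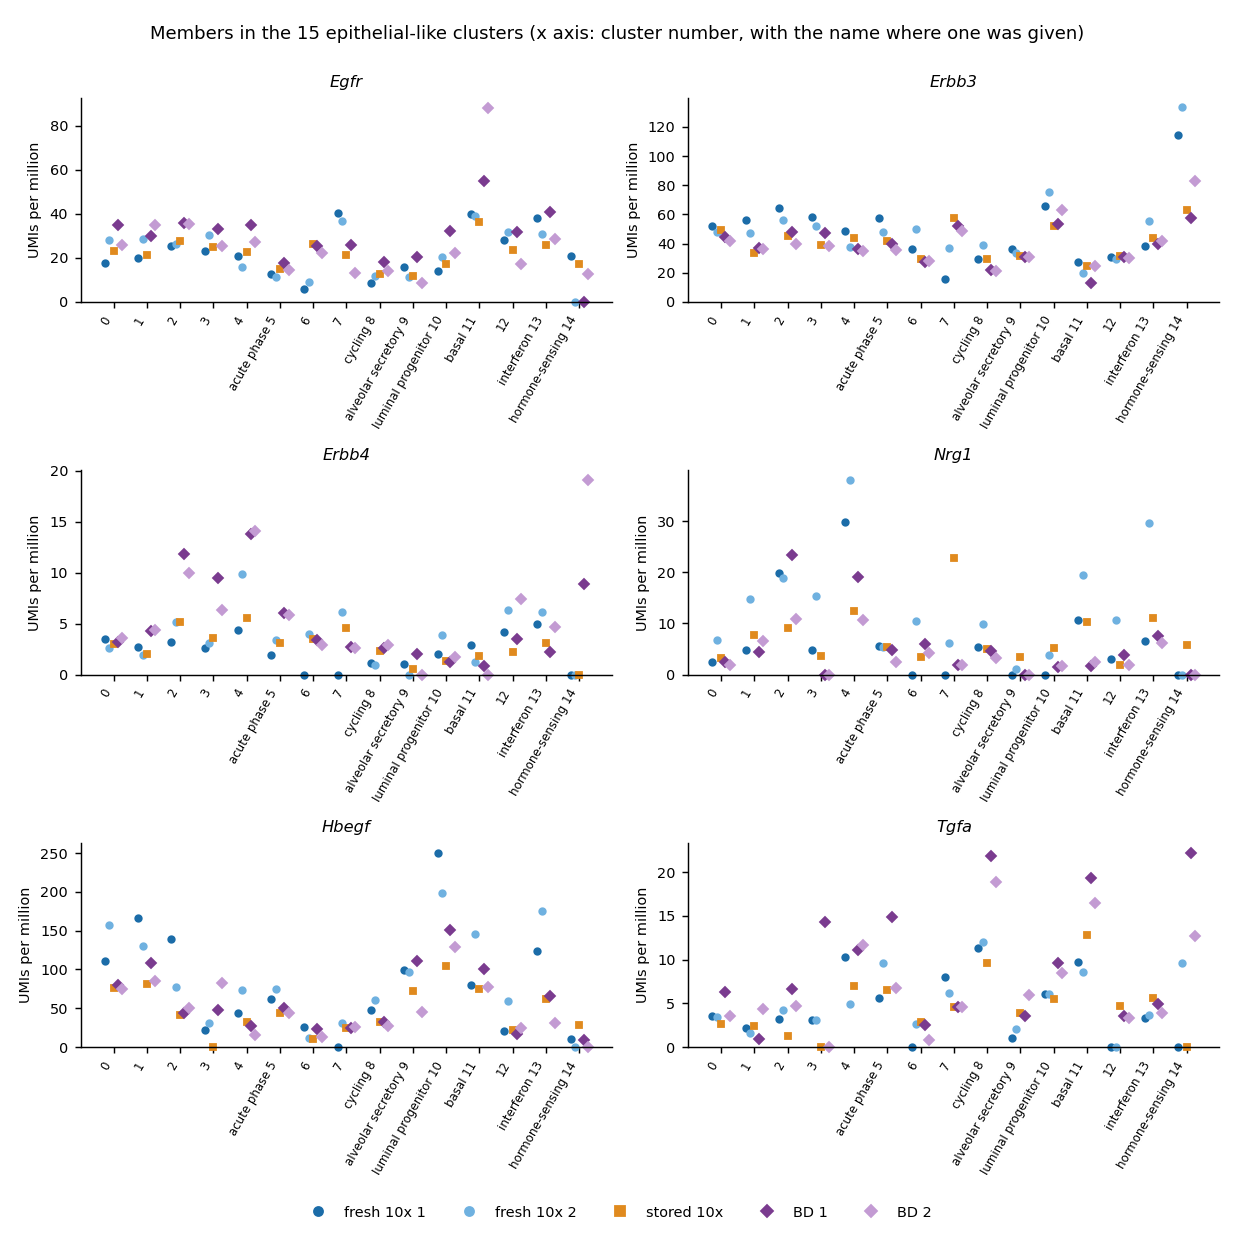
Egfr, Erbb3, Erbb4, Nrg1, Hbegf and Tgfa in UPM (y axes, linear, from 0) in the 15 epithelial-like clusters (x axis), 1 point per library. Basal 11 is high for Egfr and low for Erbb3, luminal progenitor 10 is high for Hbegf, and Hbegf is lower in stored 10x than in both fresh libraries in most clusters.

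Hbegf was highest by pooled level in endothelial-like cells, followed by epithelial-like cells. In fibroblast-like cells it was 13.7 to 68.8 UPM. In mural-like cells it was 28.1 to 71.4 in the 3 libraries with at least 20 such cells. Both ranges overlapped the epithelial-like one. Endothelial-like cells had 134 and 139 UPM in fresh 10x, 94.0 in stored 10x and 74.5 in BD 1. BD 2, with 13 such cells, had 24.3. Epithelial-like cells had 87.3, 92.5, 51.8, 59.7 and 44.5, below the endothelial-like value in each library except BD 2. Among epithelial-like clusters the luminal progenitor-like one led, with 250 and 199 in fresh 10x, 104 in stored 10x, 151 for BD 1 and 129 for BD 2. Unnamed cluster 1 (Lipa, Spp1 and Btn1a1) followed with 80.9 to 166. Macrophage-like cells had 7.02 to 12.8 (pooled 9.08) and T-like cells 0 to 15.5 (pooled 7.92).

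Areg was held by very few cells. The 10 cells with the most Areg UMIs held 87.4% and 78.0% of them in the fresh 10x libraries, 76.9% in stored 10x, 63.4% for BD 1 and 89.5% for BD 2. For Erbb3 the same share was 3.94% to 8.42%. The hormone-sensing-like cells, 48 of 11849 epithelial-like cells, held 442 of the 765 Areg UMIs, and 25 of the 48 cells had any. Their level was 1811 UPM in fresh 10x 1 (5 cells), 19.1 in fresh 10x 2 (6 cells), 269 in stored 10x (12 cells), 160 in BD 1 (13 cells) and 866 for BD 2 (12 cells). The fresh pair held both the highest and the lowest library, with 174 Areg UMIs against 2, and a single cell of fresh 10x 1 held 105 UMIs. Areg in the luminal progenitor-like cluster, next in the order, was 2.49 to 11.5 and did not overlap. Of the other 11801 epithelial-like cells 0.890% had an Areg UMI. A choice of cells made without clustering, by a UMI of at least 2 of Esr1, Pgr, Foxa1 and Cited1, gave 578, 4.48, 102, 59.7 and 334 in library order. The remaining epithelial-like cells had 0.725 to 3.11. Of the chosen cells, 3 of 7, 5 of 10, 11 of 21, 12 of 22 and 10 of 21 were hormone-sensing-like cells already counted above. The 2 choices therefore share cells, and the second is not a separate observation.

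**Figure D4:**
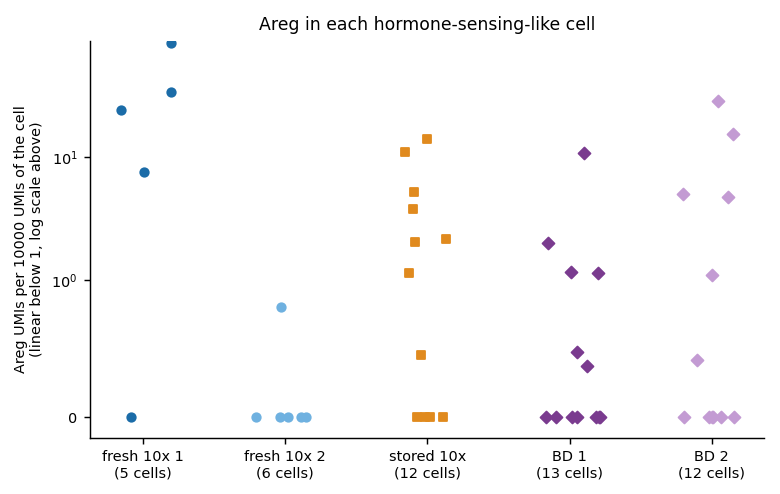
Areg UMIs per 10000 UMIs of the cell (y axis, linear below 1 and log scale above) for each of the 48 hormone-sensing-like cells, by library (x axis, with the number of cells). Cells with and without Areg occur in each library, and in fresh 10x 2 only 1 of 6 cells had Areg.

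Another source of Areg was a group of T-like cells. All 50 Areg UMIs of T-like cells were in cluster 121, led by Tnfrsf4, Ctla4, Il2ra and Foxp3, which are known markers of regulatory T cells. There 16 of 62 cells had Areg, in all 5 libraries, at a level of 200 UPM (95% Poisson interval 149 to 264, counting error only). Over the whole T-like class the level was 113 and 83.5 in fresh 10x, 77.3 in stored 10x, 12.7 for BD 1 and 51.1 for BD 2, above the epithelial-like class in each library. The 6 Areg UMIs of NK-like cells came from 2 cells of 1 library. A single macrophage-like cell had 17 UMIs, and endothelial-like and mural-like cells had 0.

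Btc was an epithelial ligand in all libraries, at 6.59 and 6.27 UPM of epithelial-like cells in fresh 10x, 5.87 in stored 10x, 9.53 for BD 1 and 9.20 for BD 2, and 97.3% of its UMIs were there. Fibroblast-like cells had at most 2.08 and did not overlap. Unlike Areg, Btc was spread out, and its 10 highest cells held 7.89% to 16.1% of its UMIs. Among epithelial-like clusters its pooled level was highest in the hormone-sensing-like cells (26.8, range 8.60 to 82.7), which overlapped unnamed cluster 3 (13.3 to 24.4). It was nearly missing from the basal-like cluster, with 6 UMIs in 494 cells. Tgfa had 94.5% of its UMIs in epithelial-like cells, the most numerous class, at 5.88, 6.78, 5.67, 10.5 and 9.13 in library order. Endothelial-like cells had the higher pooled level, 10.2 against 7.88, with an overlapping range over the libraries with at least 20 such cells of 2.17 to 23.4. Among epithelial-like clusters the pooled Tgfa level was highest in the cycling-like cluster (Ube2c, Birc5 and Top2a), at 9.63 to 21.9, and in the basal-like one, at 8.55 to 19.4, which overlap. Ereg was close to the limit of detection, with 121 UMIs in all, 92 of them in fibroblast-like cells. A single BD 1 cell held 34 of the 40 Ereg UMIs of that library. Nrg1 in fibroblast-like cells was 39.6 and 28.0 in fresh 10x and 8.28, 8.16 and 10.3 in stored 10x, BD 1 and BD 2, and in epithelial-like cells 7.64, 13.7, 6.42, 6.65 and 4.42, so that the fibroblast value was the higher one in each library but the ranges overlapped.

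The storage comparison asked which of the 10 genes differed between the fresh 10x pair and the stored 10x library. Hbegf was lower after storage in epithelial-like cells. It was 87.3 and 92.5 UPM in the fresh pair (89.9 ± 3.67, SD, n = 2) and 51.8 in stored 10x, below both, which is 1.72-fold lower. The log2 difference was -0.79 (SE 0.12), with an adjusted p of 0.0368 from edgeR's quasi-likelihood test with Benjamini-Hochberg adjustment over 14028 genes. Hbegf was the only one of 9 tested genes of the family called there, against 0.898% of all genes (0.192% lower). Over the alternatives run, the adjusted p of Hbegf was 0.00261 to 0.0482. Ereg did not pass the filter on low counts in this comparison. In whole libraries Hbegf was 85.4 and 86.8 against 48.5, with a log2 difference of -0.77 (SE 0.10) and an adjusted edgeR p of 0.0874. There 0 of 10 were called against 0.228% of all genes (0.0521% lower), and 4 had an unadjusted p under 0.05 (Egfr, Erbb2, Hbegf and Nrg1). DESeq2 called Hbegf in whole libraries too (adjusted p 0.00638), as did edgeR with RLE size factors (0.0490). Endothelial markers moved beside whole-library Hbegf, with all 7 detected and a sum of 390 and 249.3 UPM in the fresh pair and 85.8 after storage, but within epithelial-like cells they summed to 11.6 and 9.83 against 9.78. In whole-library sums alone, fewer cells of a type and less RNA per cell cannot be told apart. The fresh libraries held 2492 and 2606 Hbegf UMIs, and endothelial-like cells held 318 of them over both. The part of that class in the whole-library difference was not tested.

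The share of epithelial-like cells with an Hbegf UMI, after thinning each cell to 2000 UMIs, was 10.997% and 12.5% in the fresh pair and 6.45% after storage (33.9%, 38.8% and 23.2% as counted). The lower Hbegf level was seen across epithelial-like clusters. Stored 10x was below both fresh libraries in 11 of the 13 clusters with at least 20 cells in each of the 3 libraries, and above both in 0. Such cluster counts, here and below, come from the same libraries and are not separate observations. In the interferon-like cluster Hbegf went from 124 and 176 to 62.3, and in the cycling-like cluster from 47.8 and 60.3 to 32.1. Endothelial-like cells had 0.690 of the summed fresh level (95% interval 0.515 to 0.912, counting error only), with no test across replicates. The 9 genes of the dissociation list, Fos and Junb among them, summed to 12059 and 13606 UPM of epithelial-like cells in the fresh pair and to 10549.5 in stored 10x. None of the 9 was called by edgeR or DESeq2 in storage, and 2 had an unadjusted edgeR p under 0.05 (median log2 difference of the list -0.26, against 0.00 for all genes). Their part in the Hbegf difference was not tested.

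The other 8 tested genes did not pass the threshold after storage in epithelial-like cells. Erbb2 was 14.1 and 16.2 in the fresh pair and 20.7 in stored 10x, a log2 difference of 0.46 (SE 0.14, edgeR adjusted p 0.172), and 11 of 13 clusters had stored 10x above both fresh libraries. Erbb3 was 47.4 and 46.6 against 37.4, a log2 difference of -0.32 (SE 0.12, edgeR adjusted p 0.243). Egfr, Btc and Tgfa differed by 0.08, -0.12 and -0.15 on the log2 scale, each within an SE. Nrg1, Areg and Erbb4 turned on which fresh library was used. Nrg1 was 7.64 and 13.7 against 6.42, and its log2 difference was -1.05 without fresh 10x 1 and -0.25 without fresh 10x 2. Areg was 8.76 and 3.13 against 3.08, and its log2 difference was 0.02 without fresh 10x 1 and -1.51 without fresh 10x 2. Erbb4 was 2.42 and 3.41 against 2.70, between the fresh values, with a log2 difference of -0.29 without fresh 10x 1 and 0.15 without fresh 10x 2. In whole libraries 8 of the 10 genes in stored 10x lay outside the fresh pair's range, and 76.6% of all genes did. In epithelial-like cells 9 of 10 did, and 75.6% of all genes. These counts of family genes are on UPM and include Ereg, which was not tested in epithelial-like cells. The shares of all genes are of the tested genes on TMM-scaled levels, so the 2 are not like for like. On the scaled levels Areg differed in sign between the fresh libraries, in whole libraries (-1.28 and 0.06) as in epithelial-like cells. With 2 fresh samples, p-values measure only the spread between them, which may be technical since the labels do not say that they came from separate mice.

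**Figure D5:**
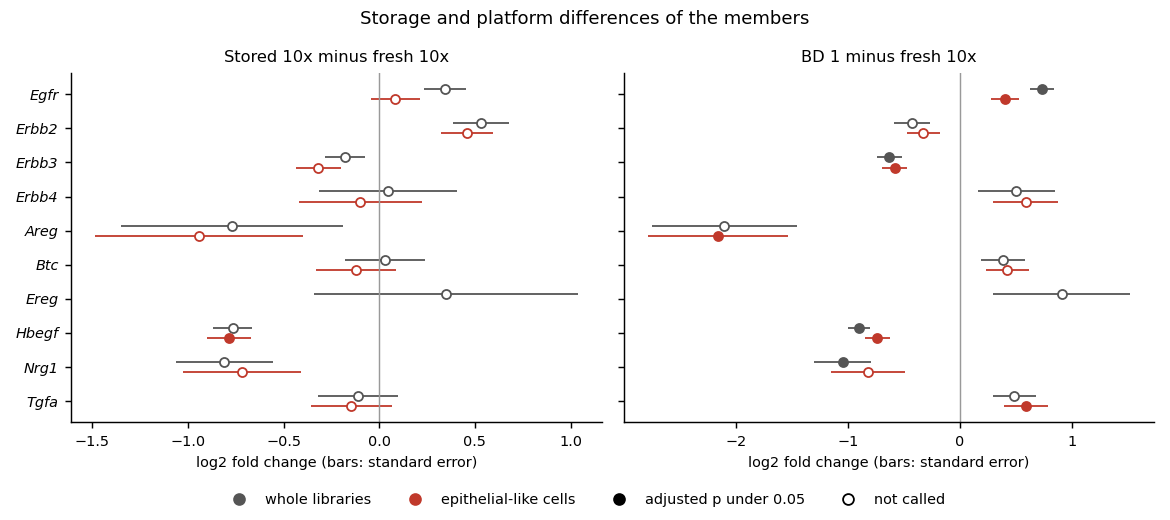
Log2 fold change (x axes, with the standard error as bars) of each gene (y axis) in stored 10x and in BD 1 against the same fresh 10x pair, in whole libraries and in epithelial-like cells, with filled points for an adjusted p under 0.05. Hbegf lies at -0.74 to -0.90 in all 4 comparisons and is called in 3 of them.

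The platform comparison set BD 1 against the same fresh 10x libraries, so it shares its controls with the storage comparison. In epithelial-like cells 5 of the 9 tested genes were called, against 43.8% of all genes, which is a share of the same order. Higher on BD 1 were Egfr and Tgfa, 2 of 9 against 22% of all genes. Lower were Erbb3, Areg and Hbegf, 3 of 9 against 21.8%. Egfr was 18.2 and 19.2 in the fresh pair and 27.2 in BD 1, a log2 difference of 0.40 (SE 0.12, edgeR adjusted p 0.0392). DESeq2 did not call it (adjusted p 0.277). Fibroblast markers, the genes of the class with the most Egfr, moved beside it. All 7 were detected in epithelial-like cells, at a sum of 87.3 and 71.1 UPM in the fresh pair and 146 on BD 1. In stored 10x they summed to 136, where Egfr was 19.6. The part of these markers in the Egfr difference was not tested. Tgfa was 5.88 and 6.78 against 10.5, with a log2 difference of 0.59 (SE 0.19, edgeR adjusted p 0.0475), and DESeq2 did not call it either (adjusted p 0.263). Hbegf was 87.3 and 92.5 against 59.7, with a log2 difference of -0.74 (SE 0.11, edgeR adjusted p 0.00250). Erbb3 was 47.4 and 46.6 against 34.7, with a log2 difference of -0.58 (SE 0.11, edgeR adjusted p 0.00683). BD 1 lay outside both fresh values for each of these 4 genes, as it did for 88.2% of all genes.

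Areg was lower on BD 1 by 2.16 on the log2 scale in epithelial-like cells (a difference of -2.16, SE 0.62, edgeR adjusted p 0.0312). This value rested on fresh 10x 1, and the log2 difference was -1.20 without it. With BD 1 and BD 2 grouped by their titles the adjusted edgeR p was 0.109. That grouping instead called Erbb2, Erbb4, Btc and Nrg1 in epithelial-like cells. Erbb2, Erbb4, Btc and Nrg1 had log2 differences of -0.33, 0.58, 0.42 and -0.82 and were not called by edgeR (adjusted p 0.127, 0.154, 0.123 and 0.0859). Nrg1 was -0.34 without fresh 10x 2. In single clusters, BD 1 was above both fresh libraries in 12 of 13 for Egfr and 11 of 13 for Btc, and below both in 10 of 13 for Erbb3 and 9 of 13 for Hbegf. In whole libraries 4 of 10 were called, against 41.4% of all genes, 1 of them higher (21.1% of all genes) and 3 lower (20.3%). All 10 lay outside the fresh pair's range, as 88.9% of all genes did. Egfr was higher (23.2 and 23.5 against 42.7, log2 difference 0.73, edgeR adjusted p 0.00851). Hbegf was lower (85.4 and 86.8 against 50.8, log2 difference -0.90, edgeR adjusted p 0.00429), as was Erbb3 (39.2 and 40.4 against 28.3, log2 difference -0.63, edgeR adjusted p 0.0128). Nrg1 was also lower (9.84 and 13.9 against 6.30, log2 difference -1.05, edgeR adjusted p 0.0316), but was not called with no filter on low counts (adjusted p 0.0677). Beside the platform, the mitochondrial share and the summed dissociation genes (9130.2 UPM of epithelial-like cells in BD 1) also differed, and their part was not tested. Without scaling factors the median of all genes shifted by 0.16 in whole libraries and 0.18 in epithelial-like cells on the log2 scale.

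BD 2 was set beside BD 1 with no test, as 1 library each. In epithelial-like cells Hbegf was 59.7 UPM for BD 1 and 44.5 for BD 2, a ratio of BD 2 to BD 1 of 0.746 (95% interval 0.703 to 0.791). Nrg1 was 6.65 and 4.42 (ratio 0.665, interval 0.552 to 0.800), and Egfr 27.2 and 22.6 (ratio 0.829, interval 0.761 to 0.902). Areg was 1.47 and 3.99, from 70 and 167 UMIs, and a single BD 2 cell held 94 of the 167, so no ratio is read from it. Erbb3, Erbb4 and Btc had ratios of 0.965, 1.07 and 0.965, with intervals that held 1. Erbb2 was lower in BD 2 (ratio 0.820, interval 0.725 to 0.926), as was Tgfa (0.866, interval 0.756 to 0.991). In fibroblast-like cells Hbegf was 13.7 for BD 1 and 26.4 for BD 2 (ratio 1.94, interval 1.44 to 2.60). Of the 98 UMIs of BD 2, 82 came from 9 cells of cluster 31. In cluster 22 the level was 7.84 for BD 1 and 5.88 for BD 2, so no class-wide shift is read from the ratio. These exact intervals cover counting error only.

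The rest of the pathway was read from 5 lists in epithelial-like cells. After storage, 0 of 4 tested other ligands, 0 of 5 shedding genes, 0 of 12 genes of receptor inhibition and turnover, and 0 of 18 ERK feedback genes and targets were called by edgeR, and 1 of 25 adaptors and kinases fell. That gene was Grb2, the adaptor that links activated receptors to Ras, with a log2 difference of -0.82 (edgeR adjusted p 0.0379). In the same order, 2, 1, 0, 7 and 4 genes had an unadjusted p under 0.05, and DESeq2 called 0, 0, 0, 0 and 1. Median log2 differences of these lists were -0.68, 0.01, 0.05, -0.10 and 0.02, against 0.00 for all genes. On BD 1, 4 of 5 shedding genes rose by edgeR (median 0.71, all genes 0.02), and DESeq2 called 2 of the 5. Among the 4 were Adam17, the main releasing protease of ErbB ligands (0.71), and Rhbdf1, which is needed for its transport (1.90). Of the ERK feedback genes and targets, 8 of 18 rose and 1 fell by edgeR, against 6 called by DESeq2 in either direction, with Etv5 at 1.83 and Dusp6, a phosphatase of ERK, at 1.33, and Dusp4 at -0.52. Of 25 adaptors and kinases, 12 rose and 4 fell, and DESeq2 called 15 (Akt2 1.54, Src 0.98, Hras -2.34, Map2k2 -1.59). Of 12 genes of inhibition and turnover, 5 rose and 3 fell, and DESeq2 called 6, the genes that fell including Errfi1, an inhibitor of Egfr, at -0.64. These shares stand against 22% of all genes called higher and 21.8% called lower by edgeR.

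For each gene with at least 500 UMIs, up to 3 genes with the most similar profile are named over 30 class-by-library sums from 7 classes, among 12079 genes, by Pearson correlation of log2(UPM + 1). These points share libraries and depth, so the values are descriptions. Egfr was closest to Fzd1 (r = 0.95), Ltbp1 and Tbx15. Erbb2 was closest to Adgra3 (0.96), Kazn and Arhgap32, Erbb3 to Scgb2b27 (0.90), Elf3 and Zfp395, and Erbb4 to Klk14 (0.96), Calml3 and Asprv1. Among the ligands, Areg was closest to Tnfrsf4 (0.87), Hbegf to Tjp1 (0.93), Ddah2 and Sgsm3, and Btc to Gm11266 (0.95), Tmem125 and Gm17619. Tgfa was closest to Ica1 (0.89), Mal and Adgrg6, and Nrg1 to Eef1akmt3 (0.94), Edil3 and 1500015O10Rik. Ereg had too few UMIs.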

How the data were processed

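The authors deposited counts, whole-number UMIs per gene and cell in sparse matrices per the file headers. Per the submitters' processing notes, Cell Ranger 3.0.1 and the mm10 genome were used, without saying for which platform or step. The 10 genes and all gene lists were chosen with earlier results of these data known.

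Spellings of a gene name were merged. Cells with at least 200 genes were clustered in scanpy 1.11.5 (2000 variable genes without the 10 genes, pathway lists and mitochondrial genes, 30 components, 15 neighbours, Leiden resolution 2.0 for classes and again for immune cells, 1.0 for epithelial-like cells), and named from marker lists. Scrublet marked 18 cells (0.115%) as doublets, too few to have worked, so doublets in effect remain. UMIs were summed per library or class and tested with edgeR 4.0.16 (TMM, filterByExpr, quasi-likelihood, residual degrees of freedom 1, adjusted p threshold 0.05). A run on simulated counts gave every gene the same dispersion, so it is not used as support for the test on these libraries. Intervals are exact at 95%. DESeq2 1.42.0, RLE size factors, no filter on low counts, stricter cells, called doublets kept, the pooled fresh matrix, marker gates, another resolution, each fresh library left out and BD samples grouped by title were alternatives. Leaving out the epithelial cluster with the highest mitochondrial share, and the choice of cells by hormone-sensing markers, were added after seeing the data. Named pathway genes are up to 3 per list and direction with the smallest adjusted p and the same sign against both fresh libraries. Part of the similarity result for Areg is not reported here.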

Additional observations from a re-analysis of the deposited data

How the results depend on the processing

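No alternative turned the direction of a called gene of the family. In whole libraries after storage, edgeR called 35 genes, DESeq2 410, edgeR with RLE size factors 152 and edgeR with no filter on low counts 2, and the number of family genes called was 0, 1, 1 and 0. In epithelial-like cells after storage, the 126 genes called became 540 with no filter. For BD 1, grouping both BD libraries by title gave 7 family genes in place of 4 in whole libraries and 8 in place of 5 in epithelial-like cells, and DESeq2 gave 3 in epithelial-like cells. The cause was not tested. Leaving out each fresh 10x library gave 3 to 4 family genes that were highest in epithelial-like cells, against 3. Hbegf in epithelial-like cells after storage ranged from -0.81 to -0.76 on the log2 scale over all alternatives run. No paired analysis was possible because the groups compared share fewer than 2 replicate numbers. With 1 stored library, 1 BD 1 library and 2 fresh ones, precision is set by the fresh pair. Ereg had 121 UMIs in all libraries and was not tested in epithelial-like cells. The mean share of fresh 10x epithelial-like cells with an Hbegf UMI was 11.7% after thinning and 36.3% as counted.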

Other observations

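Ligands of the family outside the 10 genes had patterns of their own. Nrg2, a neuregulin that binds Erbb3 and Erbb4, was 24.1 and 23.9 UPM in epithelial-like cells in the fresh 10x pair, 17.4 after storage, 5.68 for BD 1 and 4.01 for BD 2. Both BD libraries lay below all 10x libraries, and the log2 difference of BD 1 from the fresh pair was -2.23 (edgeR adjusted p 0.000200). The pooled Nrg2 level was highest in unnamed epithelial-like cluster 3 (pooled 46.0), which was mostly from 1 library, with 132 of its 217 cells in fresh 10x 1. Within fresh 10x 1 cluster 3 led with 54.4, and within fresh 10x 2 unnamed cluster 7 led with 49.0 against 42.8 in cluster 3. Egf went the other way between platforms, at 2.63 and 3.799 in the fresh pair, 3.66 after storage, 7.68 for BD 1 and 7.38 for BD 2, with a log2 difference of 1.11 for BD 1 (edgeR adjusted p 0.0171). Epgn (epigen) had 14 UMIs in the hormone-sensing-like cells of fresh 10x 1 and 11 in those of BD 2, and 0 in those of the other 3 libraries. These patterns were chosen for mention after their values were seen.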
